A study of Mus musculus with 7 samples.

Results

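The Hox genes were examined in 7 QuantSeq 3′ mRNA-Seq libraries of mouse uterine tissue, a method that reads the 3′ end of polyadenylated transcripts. Members were all rows whose gene symbol is Hoxa, Hoxb, Hoxc or Hoxd followed by a number. This gave 39 of 23282 rows, with 11 genes in the Hoxa cluster, 10 in Hoxb, 9 in Hoxc and 9 in Hoxd. The libraries fell into 3 groups from C57BL/6 mice aged 6 weeks. Recombinant human CXCL12, a chemokine that is also secreted by embryos, was infused into 1 uterine horn at 100 ng in 30 µl of saline, and per the study's methods the opposite horn of the animal received saline as the control (n = 2). CXCL12-infused tissue was taken at Day 3 (n = 2) or Day 8 (n = 3). The labels give no day for saline, do not match saline to CXCL12 horns of the same animal and do not say whether libraries come from separate animals, so the groups were compared unpaired and p-values measure only the spread between these libraries. All groups hold whole uterine tissue, in which fewer cells of a type and less RNA per cell cannot be told apart.

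Hox genes encode homeodomain transcription factors that lie in 4 clusters, and their order along each cluster follows the order of the body regions in which they act. Genes of the same number in different clusters are paralogs. In the female reproductive tract, the posterior Hoxa genes mark successive regions from the oviduct (Hoxa9) through the uterus (Hoxa10 and Hoxa11) to the cervix and upper vagina (Hoxa13). Hoxa10 and Hoxa11 stay active in the adult uterus and are required there for implantation of the embryo and for the decidual response of the stroma.

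The Hoxa9 to Hoxa13 series lies on the minus strand of chromosome 6 in GRCm38. Hoxa9 is at chr6:52223100-52231089, Hoxa10 at chr6:52231197-52240854, Hoxa11 at chr6:52242106-52245810 and Hoxa13 at chr6:52257694-52260880 in the GENCODE M21 annotation. Promoter sequences from RefSeq (GRCm38.p6) were found for 22 of the 39 members, as 24 windows of 300 bases that run from 250 bases before a transcript start to 50 after it. The windows of Hoxa10 (chr6:52240805-52241104), Hoxa11 (chr6:52245761-52246060) and Hoxa13 (chr6:52260831-52261130) are shown because the steepest step in level along the series fell between Hoxa11 and Hoxa13. They are written 5′ to 3′ on the minus strand, with each CG pair in capitals. A second annotated start of Hoxa10 has a window (chr6:52234890-52235189) that is not shown.
Hoxa10: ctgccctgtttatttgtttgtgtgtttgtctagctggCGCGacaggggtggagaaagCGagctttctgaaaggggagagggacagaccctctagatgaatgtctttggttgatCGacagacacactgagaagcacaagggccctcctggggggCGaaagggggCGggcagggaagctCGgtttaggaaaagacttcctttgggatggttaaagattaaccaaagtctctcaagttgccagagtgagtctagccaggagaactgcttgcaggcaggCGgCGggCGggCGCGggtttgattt
Hoxa11: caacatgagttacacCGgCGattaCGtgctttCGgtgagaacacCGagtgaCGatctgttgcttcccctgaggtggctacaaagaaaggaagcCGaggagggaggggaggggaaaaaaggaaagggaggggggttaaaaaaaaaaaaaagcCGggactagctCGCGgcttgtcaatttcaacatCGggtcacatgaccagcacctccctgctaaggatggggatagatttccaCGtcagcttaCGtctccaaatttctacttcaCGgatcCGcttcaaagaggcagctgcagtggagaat
Hoxa13: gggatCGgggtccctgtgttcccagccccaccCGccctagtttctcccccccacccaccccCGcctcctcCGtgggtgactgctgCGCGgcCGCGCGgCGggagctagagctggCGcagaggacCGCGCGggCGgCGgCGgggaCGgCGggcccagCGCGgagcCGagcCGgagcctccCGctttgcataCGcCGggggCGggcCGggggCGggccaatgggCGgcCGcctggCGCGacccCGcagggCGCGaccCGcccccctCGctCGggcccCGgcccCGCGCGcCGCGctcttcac

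These windows held 12 CG pairs for Hoxa10, 15 for Hoxa11 and 45 for Hoxa13, and the second Hoxa10 window held 21. The median over all 32851 mouse promoter windows was 7, and 98.1% of them held fewer CG pairs than that of Hoxa13. Among member windows, the median was 14 (range 4 to 29) in the 13 windows of genes with a mean of at least 10 CPM. It was 26 (range 9 to 45) in the 7 windows of genes with a mean under 1 CPM. These counts describe sequence only, and no methylation or binding was measured.

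Levels are given in CPM, counts scaled to a common library total. A 3′ library gives about 1 read for each transcript, so CPM was compared between genes without division by length. Totals ranged from 6908790 to 12308982 counts, and the floor of 3 counts corresponded to between 0.244 and 0.434 CPM, which covers counting error only. For Day 3 replicate 1, counts were estimated from deposited log2 values. The summed Hox level was 1454 CPM in saline replicate 1 and 694 CPM in replicate 2. It was 570 and 647 CPM at Day 3, and 638, 838 and 977 CPM in Day 8 replicates 1 to 3. Saline replicate 1 was thus the highest of the 7 libraries, and both Day 3 libraries and Day 8 replicate 1 lay below both saline libraries.

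Of the 39 members, 16 had a mean of at least 10 CPM over the 7 libraries, 10 lay between 1 and 10 CPM and 13 were under 1 CPM. More than 3 counts were reached in every library by 25 members and in some libraries by 7. The remaining 7 stayed at or under 3 counts throughout, and 3 of them (Hoxb13, Hoxc12 and Hoxc13) were at 0 in every library. The 16 higher genes comprised 4 from Hoxa, 5 from Hoxb, 2 from Hoxc and 5 from Hoxd.

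**Figure D1:**
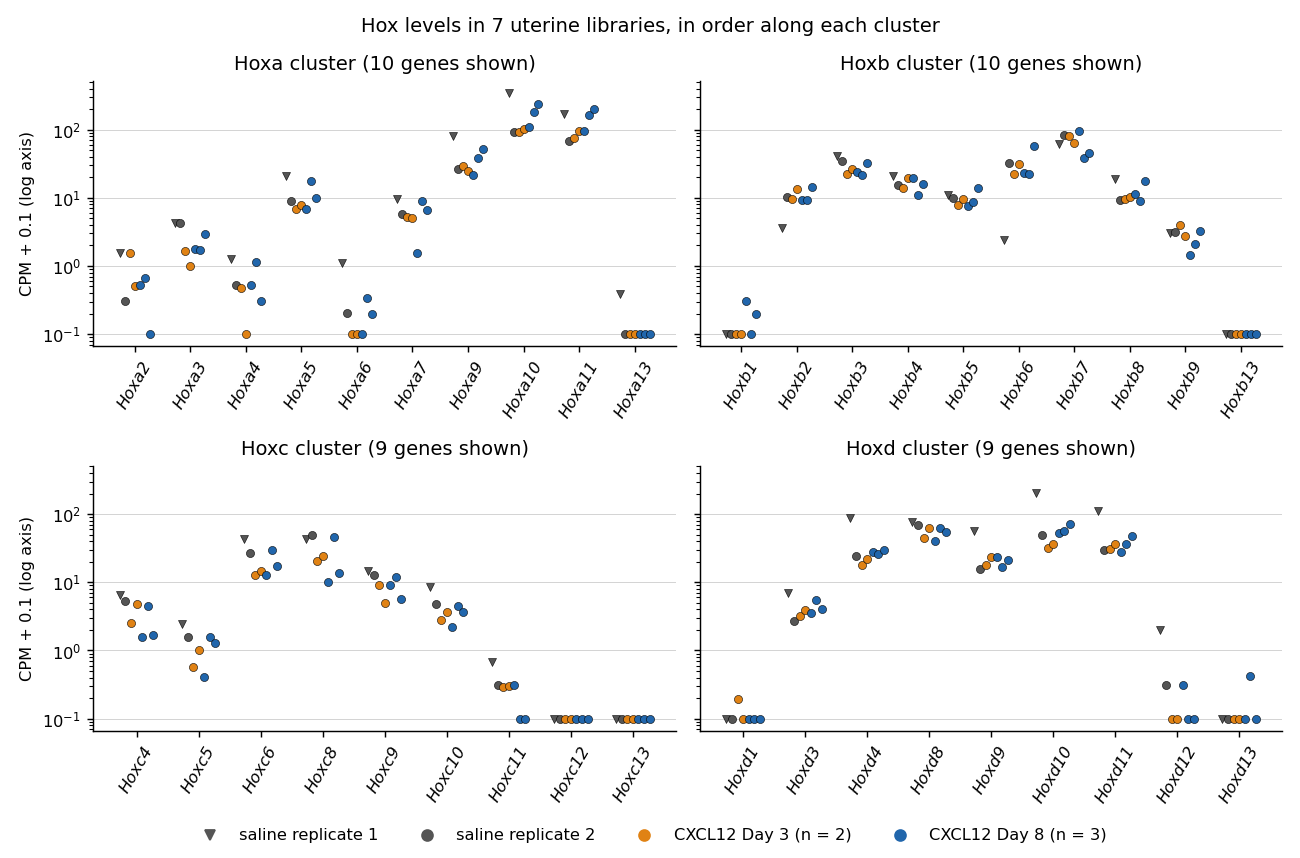
Level of 38 Hox genes (CPM + 0.1, log axis) in the 7 libraries, with genes in order along each cluster and 1 point per library; the triangle is saline replicate 1. Hoxa10 and Hoxa11 are the highest and Hoxa13 lies at the bottom of the axis, and the highest-numbered genes of every cluster are at or near 0.

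Hoxa10 had the highest mean of all members (165 CPM, above 96.1% of all rows), followed by Hoxa11 (123 CPM). Hoxa10 was above Hoxa11 in 7 of 7 libraries, with a Hoxa11 to Hoxa10 count ratio between 0.490 and 0.947. Hoxa11 was above the next gene, Hoxd10, in 6 of 7. Below this, the order was less fixed. Hoxd10 (72.0 CPM) was above Hoxb7 (66.4 CPM) in only 3 of 7 libraries, and Hoxb7 was above Hoxd8 (58.6 CPM) in 4 of 7.

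Along the Hoxa9 to Hoxa13 series, Hoxa9 was at 80.3 and 26.5 CPM in saline replicates 1 and 2, at 28.7 and 25.0 CPM at Day 3, and at 21.5, 38.2 and 51.6 CPM at Day 8. Hoxa10 was at 343 and 91.0 CPM in saline, at 91.2 and 100.1 CPM at Day 3, and at 111, 183 and 236 CPM at Day 8. Hoxa11 was at 168 and 68.8 CPM in saline, at 74.2 and 94.8 CPM at Day 3, and at 94.0, 162 and 198 CPM at Day 8. For these 3 genes the saline libraries overlapped both CXCL12 groups, and Day 8 replicate 1 was the lowest and replicate 3 the highest of the Day 8 libraries. Hoxa13 gave 2 counts in saline replicate 1 and 0 counts in the other 6 libraries, which allows at most 0.316 CPM in any of them. The Hoxa13 to Hoxa11 ratio in saline replicate 1 was 0.00173. The 7 cervix and vagina markers summed to between 1.22 and 19.98 CPM in a library. Most of the highest sum, in Day 3 replicate 1, came from Sprr1a (16.3 CPM).

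The group 13 and group 12 paralogs were low in all clusters. These 6 members together gave at most 15 counts in a library, of which 13 were Hoxd12 in saline replicate 1. Paralog group 10 (Hoxa10, Hoxc10 and Hoxd10) took between 20.8% and 38.2% of all Hox counts and group 11 between 14.3% and 25.2%.

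The Hoxd genes formed the second set of high posterior levels. Hoxd10 was at 205 and 48.6 CPM in saline, at 31.8 and 36.2 CPM at Day 3 and at 53.1, 57.3 and 71.7 CPM at Day 8. Hoxd11 was at 110 and 30.03 CPM in saline, at 30.5 and 36.3 CPM at Day 3 and at 27.5, 36.6 and 48.3 CPM at Day 8. Both were highest in saline replicate 1, well above the next library. Among the other 6 libraries, Hoxd10 was lowest at Day 3, intermediate in saline replicate 2 and highest at Day 8, whereas the Hoxd11 levels of Day 3 and Day 8 overlapped. Hoxd9 was at 56.7 and 15.8 CPM in saline, at 17.6 and 23.5 CPM at Day 3 and at 23.2, 16.7 and 21.4 CPM at Day 8. Hoxd4, a gene of the anterior part of the cluster, was at 87.6 and 24.4 CPM in saline, at 17.8 and 22.2 CPM at Day 3 and at 27.5, 26.0 and 29.8 CPM at Day 8. The same library was the highest for these genes. Hoxd8 was the steadiest of the set, at 77.3 and 67.9 CPM in saline, at 44.8 and 62.2 CPM at Day 3 and at 40.6, 62.5 and 54.9 CPM at Day 8. In the annotation, 388 exon bases are shared by Hoxd3 and Hoxd4 on the same strand, and how the reads there were assigned is not stated.

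The Hoxb cluster was led by Hoxb7, at 61.1 and 83.5 CPM in saline, at 79.2 and 63.9 CPM at Day 3 and at 94.3, 38.1 and 44.9 CPM at Day 8. Hoxb3 was at 41.3 and 34.7 CPM in saline, at 22.3 and 26.3 CPM at Day 3 and at 23.6, 21.3 and 31.8 CPM at Day 8. In CPM, Hoxb3 was therefore lower in each of the 5 CXCL12 libraries than in either saline library. On the quantile-normalized log2 scale Day 8 replicate 3 (8.31) lay above saline replicate 2 (8.24), and Hoxb3 did not meet the cutoffs described below at Day 3 (log2 fold change -0.37) or Day 8 (-0.31). Hoxb4 was at 21.0 and 15.4 CPM in saline, at 13.8 and 19.5 CPM at Day 3 and at 19.7, 10.9 and 15.7 CPM at Day 8, with overlapping groups. Hoxb8 was at 18.7 and 9.27 CPM in saline, at 9.46 and 10.2 CPM at Day 3 and at 11.1, 8.94 and 17.3 CPM at Day 8, again overlapping. Hoxb6 had the widest range of the 16 members with a mean of at least 10 CPM. It gave 2.32 CPM (16 counts) in saline replicate 1 but 31.9 CPM (303 counts) in replicate 2, a ratio of 0.0725. Its level was 22.0 and 30.7 CPM at Day 3 and 22.9, 22.5 and 58.2 CPM at Day 8, so that the highest library was 25.1 times the lowest. Its neighbour Hoxb5 varied 1.88-fold over the same libraries, and Hoxb2, at the far end of the cluster, was also lowest in saline replicate 1 (3.47 CPM against 9.02 to 14.2 CPM).

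In the Hoxc cluster, Hoxc8 was at 42.6 and 50.04 CPM in saline, at 20.45 and 24.5 CPM at Day 3 and at 9.89, 46.8 and 13.5 CPM at Day 8. Hoxc6 was at 43.0 and 26.6 CPM in saline, at 12.5 and 14.3 CPM at Day 3 and at 12.8, 29.2 and 17.2 CPM at Day 8. Both genes were lower at Day 3 than in either saline library, whereas Day 8 replicate 2 lay in the saline range. The summed Hoxc level was 118 and 101 CPM in saline and 47.7 and 53.0 CPM at Day 3. It was 35.9, 98.2 and 42.7 CPM at Day 8. In CPM, all CXCL12 libraries thus lay below both saline libraries, Day 8 replicate 2 only narrowly. On the quantile-normalized log2 scale, Hoxc8 in Day 8 replicate 2 (8.88) lay above both saline libraries (8.50 and 8.80). Hoxc6 in that library (8.20) lay between them (8.51 and 7.85). Of the anterior Hoxa genes, Hoxa5 alone reached a mean of 10 CPM, at 20.6 and 8.74 CPM in saline, at 6.69 and 7.62 CPM at Day 3 and at 6.77, 17.2 and 9.66 CPM at Day 8.

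**Figure D2:**
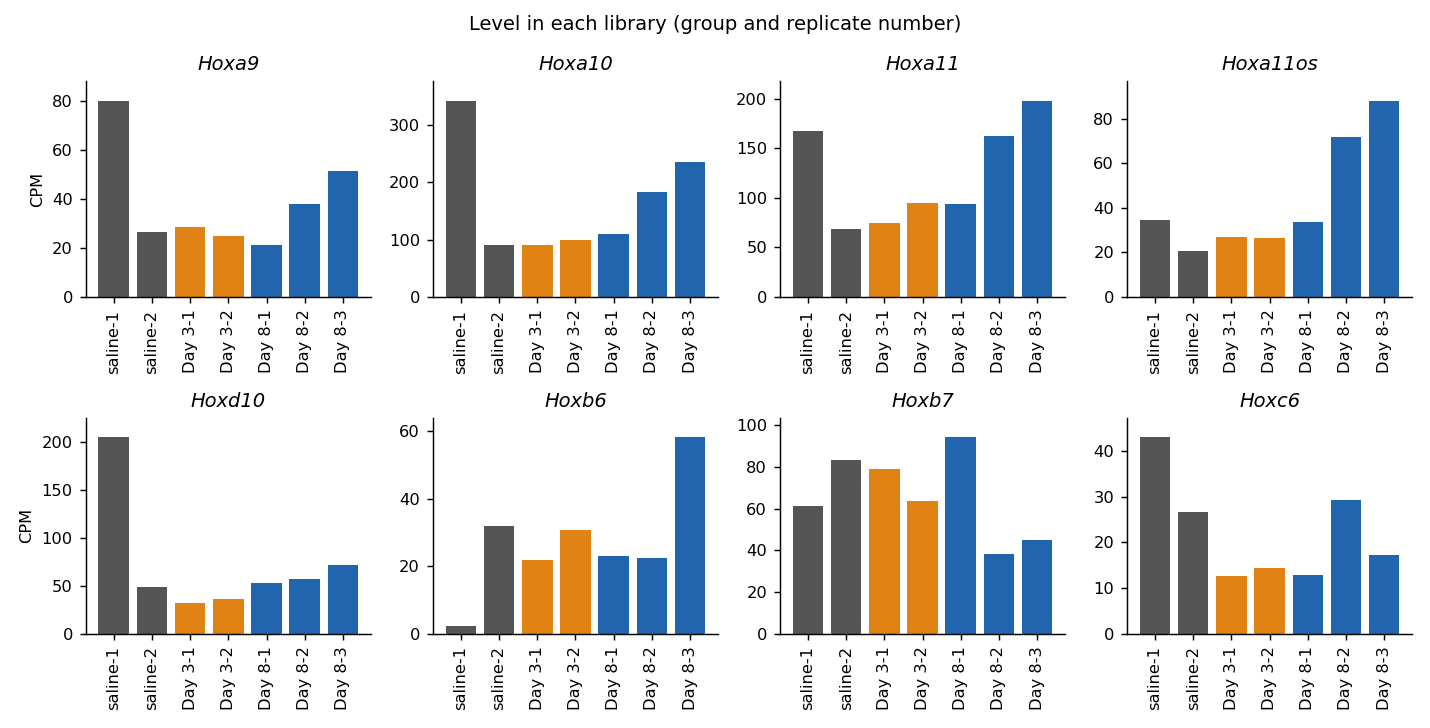
Level (CPM, linear axis from 0, each panel with its own scale) of 7 Hox genes and the antisense transcript Hoxa11os in each library, labelled by group and replicate (grey saline, orange CXCL12 Day 3, blue CXCL12 Day 8). Saline replicate 1 is the highest for Hoxa9, Hoxa10, Hoxd10 and Hoxc6 and by far the lowest for Hoxb6 (2.32 CPM).

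The clusters took different shares of the Hox counts. The Hoxa share was 43.2% and 29.7% in saline, 36.7% and 36.2% at Day 3, and 37.1%, 49.3% and 51.7% at Day 8. The Hoxd share was 37.5% and 27.3% in saline, 25.6% and 28.5% at Day 3, and 27.5%, 24.5% and 23.5% at Day 8. The saline libraries thus differed by more than the Day 3 libraries did, and Day 8 replicates 2 and 3 had the highest Hoxa share. The Hoxb share ranged from 11.1% in saline replicate 1 to 29.7% in Day 8 replicate 1, and the Hoxc share from 4.37% in Day 8 replicate 3 to 14.5% in saline replicate 2. The widest 95% Wilson interval of a cluster share, from between 5967 and 10310 Hox counts, spanned 2.45 percentage points. Such an interval covers counting error within a library only, not the spread between libraries.

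**Figure D3:**
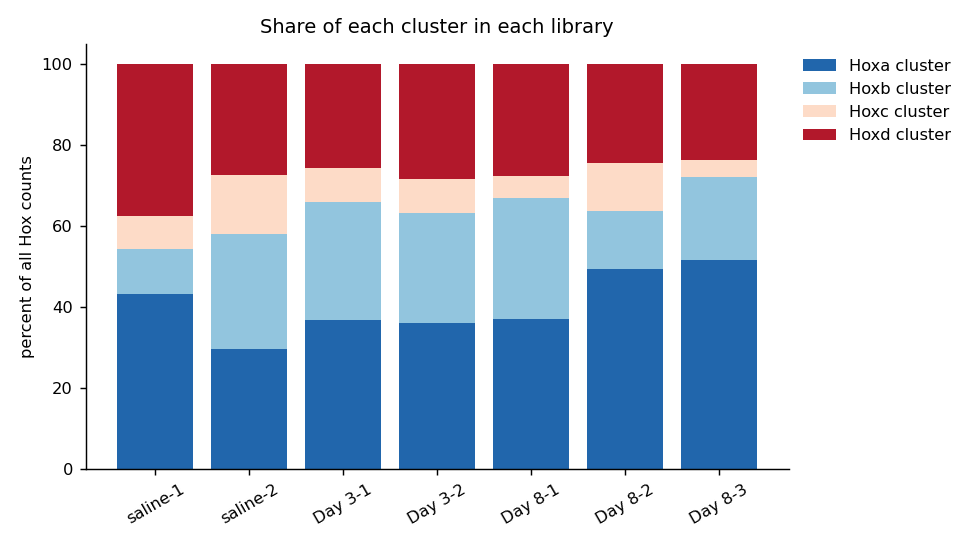
Share of all Hox counts (percent) taken by each cluster in each of the 7 libraries. The Hoxa share is between 29.7% and 51.7%, and the Hoxb share is smallest in saline replicate 1 (11.1%).

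The difference between the saline libraries was examined before the groups were compared. Of the 16 members with a mean of at least 10 CPM, 13 were higher in saline replicate 1 and 9 were at least 2-fold higher, namely Hoxa5, Hoxa9, Hoxa10, Hoxa11, Hoxb8, Hoxd4, Hoxd9, Hoxd10 and Hoxd11. Over all 9353 rows with such a mean, 10.1% were at least 2-fold higher. The largest ratio was that of Hoxd10 (4.22), followed by Hoxa10 (3.76) and Hoxd11 (3.68). The median ratio was 2.18 over the 16 members and 1.04 over all these rows. On TMM effective library sizes, 8 of the 16 remained at least 2-fold higher. Marker lists also differed between these libraries. The 5 immune markers summed to 191 CPM in replicate 1 and 108 CPM in replicate 2, the 5 adipocyte markers to 415 and 1925 CPM, the 6 myometrium markers to 2878 and 1757 CPM, and the 6 stroma markers to 9633 and 10255 CPM. Their part in the Hox levels was not tested.

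**Figure D4:**
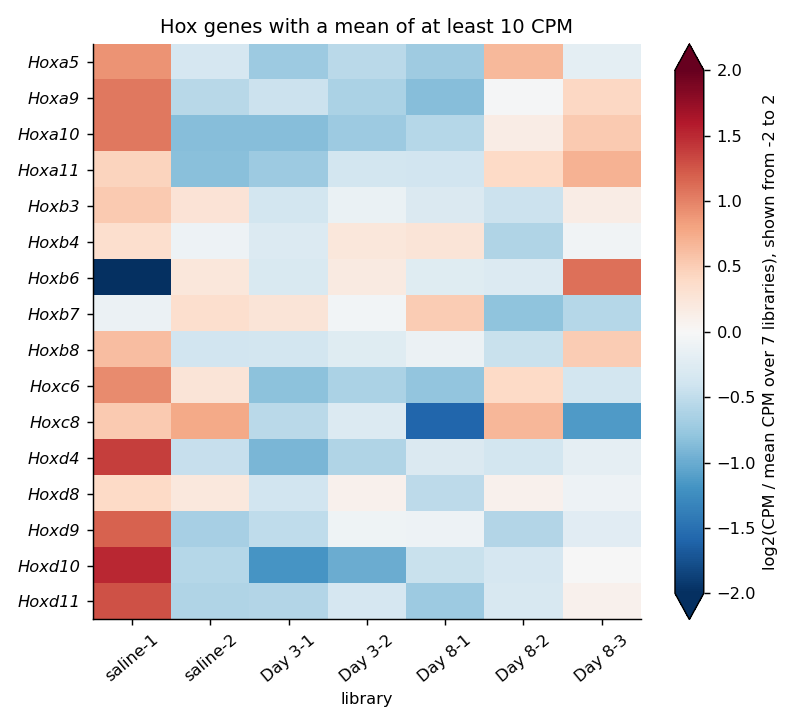
Level of the 16 Hox genes with a mean of at least 10 CPM in each library, as log2 of CPM over the gene's mean CPM of all 7 libraries (colour scale from -2 to 2, with Hoxb6 in saline replicate 1 beyond it). The column of saline replicate 1 is above the mean for 14 of 16 genes when set against the other 6 libraries.

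To ask whether the uterus changed its Hox genes 3 days after CXCL12, Day 3 was compared with saline by limma on quantile-normalized log2(normalized count + 1) values of all 7 libraries, a scale that understates the change of low genes. A gene was called at a fold change of at least 2 with an unadjusted P under 0.05. Of 28 tested Hox genes, 3 were called and all were lower at Day 3, where 4.56% of 15257 genes were called and 2.58% were called lower. The log2 fold change was -1.40 ± 0.58 (SE) for Hoxd10 and -1.03 ± 0.41 for Hoxc6. It was -1.31 ± 0.56 for Hoxa3, from 4.198 and 4.21 CPM in saline to 1.53 and 0.903 CPM. None of the 3 passed correction, as the limma adjusted p was 0.629 for each, and no gene of any kind passed an adjusted p of 0.1 (1120 genes had an unadjusted P under 0.05).

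These 3 calls did not hold without Day 3 replicate 1, Day 3 replicate 2 or saline replicate 1. Fewer of all genes were called in those fits as well. Without saline replicate 1, Hoxd10 was at -0.33, Hoxc6 at -0.69 and Hoxa3 at -1.38. Without saline replicate 2, Hoxd10 was at -2.47, Hoxc6 at -1.37, Hoxa3 at -1.27, Hoxa9 at -1.34 and Hoxa10 at -1.84. Marker lists of other tissues and cells also differed between these groups. The 7 ovary markers summed to 125 and 311 CPM in saline and to 5.26 and 7.72 CPM at Day 3, and 4 of the 6 tested (Inha, Gdf9, Zp3 and Cyp11a1) were called lower. The 5 immune markers summed to 191 and 108 CPM in saline and to 54.8 and 57.8 CPM at Day 3, and 1 of the 3 tested, Cd68, was called lower. Their part in the Hox values was not tested. Hoxa3 cannot be told apart from the antisense transcript Hoxaas2, whose exons share 503 bases with it on the opposite strand: their counts were identical in 5 of 6 count libraries and differed by 2 in the other. Hoxaas2 was called lower too (-1.35 ± 0.57, limma adjusted p = 0.629).

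The other tested members did not meet the cutoffs at Day 3. Hoxa10 had a log2 fold change of -0.82 ± 0.60, Hoxa9 of -0.54 ± 0.54 and Hoxa11 of -0.23 ± 0.47. By cluster, 7 of 8 tested Hoxa genes, 6 of 6 Hoxc genes and 5 of 6 Hoxd genes had negative values, whereas 6 of 8 Hoxb genes had positive values. The median was -0.38 over the 28 members and 0.02 over all genes tested. Without quantile normalization these medians were -0.70 and -0.26, a difference of similar size.

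At Day 8, none of 29 tested Hox genes was called by the quasi-likelihood test of edgeR, fitted to the 6 libraries with counts, where 2.94% of 15388 genes were called. The count at an unadjusted P under 0.05 was 0, beside 658 of all genes tested. DESeq2 and limma called 0 members as well, beside 3.61% and 3.7% of all genes. No member passed an adjusted p of 0.1 by any of these tools. The smallest edgeR P belonged to Hoxd12 (adjusted p = 0.956), a gene with 13 counts in saline replicate 1 and at most 2 in any other library. Hoxa10 had a log2 fold change of -0.02 ± 0.54 (SE), Hoxa9 of -0.25 ± 0.51 and Hoxa11 of 0.63 ± 0.45. The group means behind them were 217 ± 178 CPM (SD, n = 2) in saline and 177 ± 63.0 CPM (n = 3) at Day 8 for Hoxa10, and 118 ± 70.0 and 151 ± 52.8 CPM for Hoxa11. The SD within saline was larger than the difference for both genes.

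Across the 29 members, 22 had negative and 7 positive values at Day 8, with a median of -0.25 beside -0.01 over all genes tested. The 6 tested Hoxc genes were all negative, with a median of -0.69. The median was -0.62 for 7 Hoxd genes, -0.18 for 8 Hoxa genes and 0.08 for 8 Hoxb genes. The Day 3 and Day 8 comparisons share the saline libraries, so their values for Hoxc cannot support each other. The direction of the whole set depended on which saline library was used. Without saline replicate 1 the median was 0.22, Hoxa11 was called higher at Day 8 (1.32) and Hoxa10 was at 1.14, and 1.89% of all genes were called. Without saline replicate 2 the median was -0.56 and 6 members were called, of which Hoxb2 and Hoxb6 were higher and Hoxd4, Hoxd9, Hoxd10 and Hoxd11 lower, in a fit that called 1527 of 15277 genes. Without Day 8 replicate 2, 2 members (Hoxc4 and Hoxc8) and 3.12% of all genes were called.

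Day 8 was also compared with Day 3 directly, in which the saline libraries entered through the shared spread and the quantile normalization. None of 28 tested members was called by limma, and none had an unadjusted P under 0.05, where 4.68% of 15257 genes were called. The smallest P was that of Hoxa11 (0.86 ± 0.43, SE). Hoxa10 was at 0.90 ± 0.54, Hoxd10 at 0.86 ± 0.53 and Hoxa9 at 0.39 ± 0.49. The median was 0.14, with 18 positive and 10 negative values, beside -0.0023 over all genes. Without Day 8 replicate 1, the library whose table carries Day 3 in its name, Hoxa11 was called higher (1.14), and 11.2% of all genes were called.

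**Figure D5:**
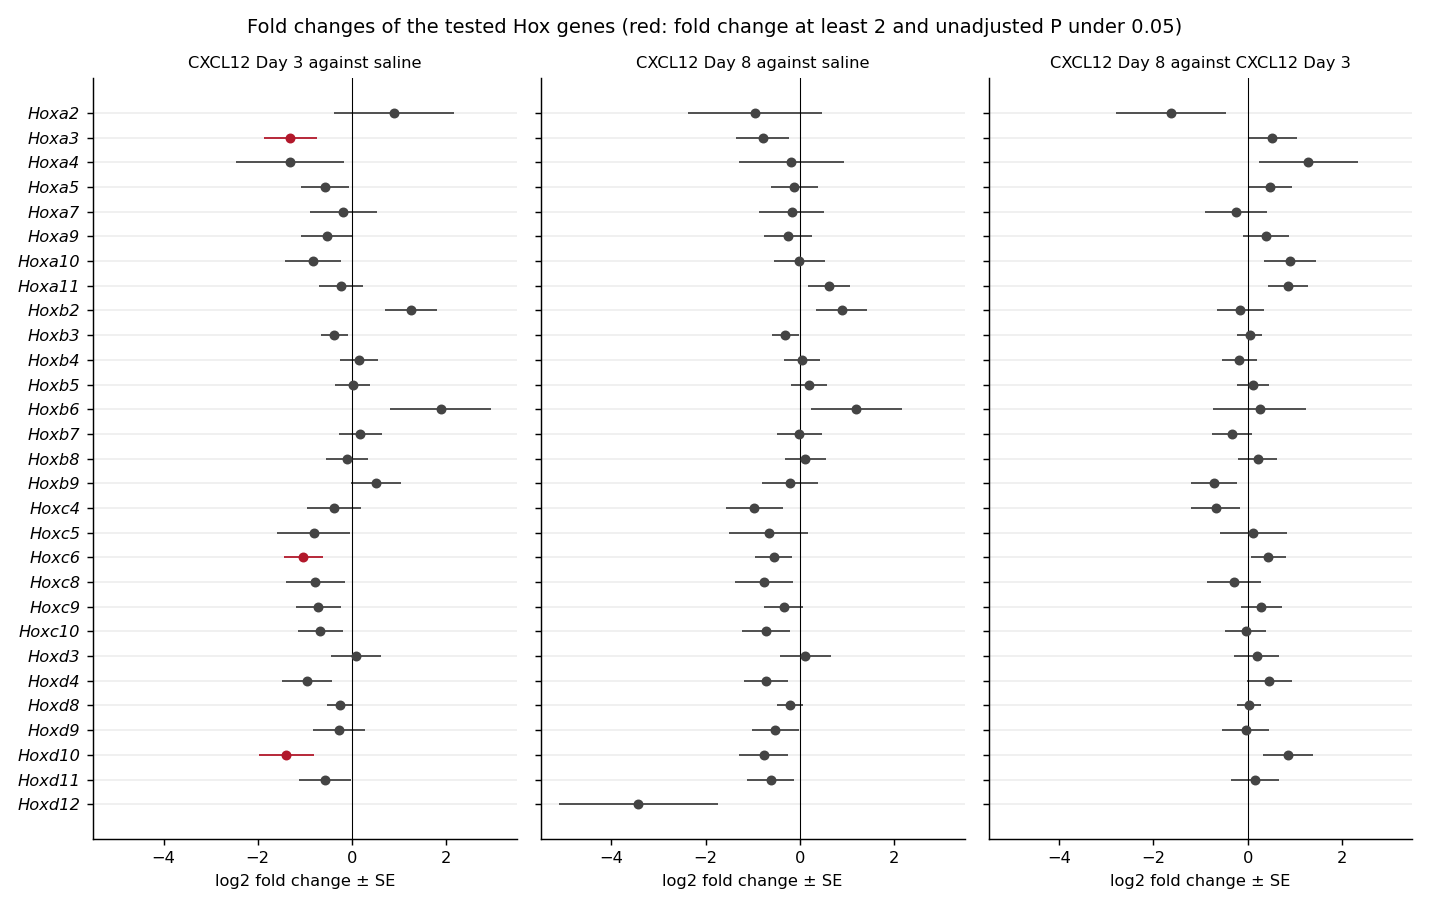
Log2 fold change with SE of each tested Hox gene in the 3 comparisons (28 genes in both limma comparisons, 29 in the edgeR comparison of Day 8 against saline). Red points are the 3 called genes (Hoxa3, Hoxc6 and Hoxd10, lower at Day 3), and the Hoxc genes lie left of 0 in both comparisons with saline.

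Of the noncoding transcripts and flanking genes of the clusters, Hoxa11os was the highest. It is transcribed from the strand opposite Hoxa11 (chr6:52244393-52249799), and 800 exon bases are shared with Hoxa11. How strand was used in counting is not given, so reads in these bases may belong to either transcript or be counted for both. Hoxa3 and Hoxaas2, which also lie on opposite strands, had identical counts in 5 of 6 count libraries. Hoxa11os was at 34.3 and 20.4 CPM in saline, at 26.9 and 26.5 CPM at Day 3 and at 33.7, 71.8 and 88.0 CPM at Day 8. Day 8 replicates 2 and 3 stood above all other libraries, whereas Day 8 replicate 1 lay within the saline range. Hoxa11os was called higher at Day 8 than in saline (1.49 ± 0.44, edgeR adjusted p = 0.956) and than at Day 3 (1.18 ± 0.40, limma adjusted p = 0.698). The first of these was not called with the replicate block (1.17) or without saline replicate 2 (1.22). The second was not called without Day 3 replicate 1 (1.21) or 2 (1.14), or without Day 8 replicate 2 (1.07) or 3 (0.93). The Hoxa11os to Hoxa11 count ratio was 0.204 and 0.297 in saline, 0.362 and 0.279 at Day 3, and 0.359, 0.443 and 0.444 at Day 8. Of the 11 listed transcripts and flanking genes with a row, 8 were tested at Day 8 and no other was called, and Hottip and Evx2, which flank the posterior ends of Hoxa and Hoxd, were at 0 in every library.

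Marker lists also differed between the Day 8 libraries and the others. The 6 progesterone-induced genes summed to 9.41 and 22.1 CPM in saline, 13.3 and 14.6 CPM at Day 3 and 20.7, 123 and 272 CPM at Day 8, and 4 of the 6 were called higher at Day 8 than in saline. The 6 myometrium markers summed to 3008 and 3555 CPM at Day 3 and to 1749, 4209 and 3976 CPM at Day 8, and 2 (Des and Actg2) were called higher than in saline. The 6 stroma markers summed to 11576 and 12644 CPM at Day 3 and to 7357, 12980 and 15021 CPM at Day 8. The 7 ovary markers summed to 1229 CPM in Day 8 replicate 2 and to 34.8 and 12.1 CPM in replicates 1 and 3. The 5 oviduct markers summed to between 353 and 1019 CPM in every library. The highest of the 5 was Ovgp1 (235 to 729 CPM), whereas Foxj1 and Dynlrb2 were at 0 counts in Day 8 replicate 3. The 5 adipocyte markers summed to 126, 192 and 134 CPM at Day 8, below both saline libraries, and all 5 were called lower. The 6 oestrogen-induced genes summed to 1177 and 890 CPM in saline and to 682, 273 and 406 CPM at Day 8, with 1 called higher (Clca3a1) and 1 lower (Ltf). The 6 epithelium markers, which also include Ltf, summed to 907 and 957 CPM in saline and to 925, 432 and 733 CPM at Day 8. No listed marker of these tissues was at 0 in every library. Their part in the Hoxa11os and Hoxa11 values was not tested.

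The proteins that bind DNA together with Hox proteins, the TALE cofactors, were all tested. None of the 9 was called in any comparison and none had an unadjusted P under 0.05 by edgeR or limma. Of 8 genes placed downstream of Hoxa10 or Hoxa11 in the uterus, 7 were tested and none was called at Day 8 against saline. Emx2, a homeobox gene repressed by Hoxa10 in endometrium, was the highest (126 CPM on average) and ranged from 97.7 to 146 CPM. Itgb3, the integrin beta 3 subunit, was called higher at Day 3 than in saline, at 24.8 and 31.3 CPM against 14.6 and 17.7 CPM (1.05 ± 0.39, limma adjusted p = 0.629). That call was lost without quantile normalization (0.79), without saline replicate 1 (0.90), and without Day 3 replicate 1 (1.17) or 2 (0.91). Ptger3, a prostaglandin E receptor, was called higher at Day 8 than at Day 3 (1.31 ± 0.53, limma adjusted p = 0.698), with 18.1 and 21.4 CPM in Day 8 replicates 2 and 3 and 5.42 CPM in replicate 1, against 5.16 and 4.51 CPM at Day 3. It was not called without Day 3 replicate 1 (1.43) or 2 (1.19), or without Day 8 replicate 2 (1.12) or 3 (0.97).

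Among 20 genes of Mullerian duct and uterine patterning, 18 were tested. Msx1, a homeobox gene of the uterine epithelium, was lower at Day 3 than in saline (53.2 and 55.5 CPM against 162 and 173 CPM, -1.48 ± 0.43) and higher at Day 8 than at Day 3 (258, 107 and 275 CPM, 1.89 ± 0.39). All Day 3 libraries lay below all others, and both calls held when any library of the compared groups was left out. Sox17, an epithelial transcription factor, was higher at Day 8 than at Day 3 (114, 76.6 and 156 CPM against 54.6 and 52.1 CPM, 1.09 ± 0.30). Without Day 8 replicate 3 the Sox17 value was 0.87, under the fold cutoff. No adjusted p of limma was below 0.629 at Day 3 or 0.651 in the Day 8 against Day 3 comparison for these list genes. The 5 steroid receptors gave no call in any comparison and no unadjusted P under 0.05. Of 9 chromatin regulators of Hox clusters, Kmt2a, the trithorax methyltransferase that maintains Hox expression, was called lower at Day 3 (-1.001 ± 0.41, limma adjusted p = 0.629). It was at 183 and 73.0 CPM in saline and at 56.2 and 47.5 CPM at Day 3, and without saline replicate 1 its value was -0.31. In each other comparison 1 of the 9 had an unadjusted P under 0.05 but stayed under the fold cutoff. Suz12 was lower at Day 8 than in saline (-0.86 ± 0.26, edgeR adjusted p = 0.956), at 42.3, 47.0 and 38.0 CPM against 104 and 81.1 CPM. Cbx7 was higher at Day 8 than at Day 3 (0.73 ± 0.30, limma adjusted p = 0.698).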

How the data were processed

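QuantSeq 3′ mRNA-Seq was analysed in 7 libraries. Per the paper's methods and the submitters' processing notes, reads were aligned with Bowtie2, unique and multiple alignments were counted with Bedtools, and values were quantile-normalized in edgeR; mm10 and hg19 are named as builds, and tool versions, annotation and strand use are not given in the sources used here. The authors deposited raw read counts for each gene symbol in 6 of the libraries. The remaining table, Day 3 replicate 1, was deposited as log2 of a normalized count plus 1. Its counts were estimated by undoing the transformation and dividing by 1.0515, after which 97.0% of 3819 low values were within 0.1 of a whole number.

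The test of Day 8 against saline used edgeR 4.0.16 (glmQLFit, TMM, filterByExpr) on the libraries with counts, leaving 3 residual degrees of freedom. Both comparisons with Day 3 used limma 3.58.1 with a trend over 7 libraries, leaving 4 residual degrees of freedom, on quantile-normalized values with a pseudocount of 1 and a mean above 2 on the log2 scale. P-values were adjusted by Benjamini-Hochberg over all genes. SE of edgeR values was |log2 fold change| over √F. R 4.3.3 and DESeq2 1.42.0 were used. The tests were run on simulated data with planted changes larger than the fold cutoff, so changes near the cutoff were not checked. Day 8 replicate 1 was placed by its label. Totals per library were 6908790 to 12308982 counts, and edgeR's common dispersion gave a biological coefficient of variation of 42.2%.

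The members and lists were chosen with earlier results of these data known. Values in every library are given for Hoxa9 to Hoxa13 and members with a mean of at least 10 CPM; other members and list genes are named where called, highest of their set, or where a result turns on them. Hoxb2, Hoxb5, Hoxd12, Suz12 and Cbx7 were named after their values were seen. Alternatives were upper-quartile normalization, DESeq2, limma, no filter, no quantile normalization, a pseudocount of 0.1, estimated counts in edgeR, a replicate block, other library totals and leaving out each library. Single values of some members and list genes are not reported here. Coordinates are from GENCODE M21 (GRCm38, the assembly of mm10).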

Additional observations from a re-analysis of the deposited data

Results flagged for a closer look

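For Hoxa11, on the quantile-normalized log2 scale, both Day 3 libraries lay below the mean of the saline libraries and all 3 Day 8 libraries lay above it. The direct test of Day 8 against Day 3 gave a log2 fold change of 0.86 (SE 0.43, limma adjusted p = 0.714), and the gene did not meet the cutoffs. The 2 saline libraries themselves lay on either side of their mean, at 168 and 68.8 CPM. In CPM, Day 8 replicate 1 (94.1 CPM) lay below the saline mean (118 CPM). No group holds 4 or more libraries, so single libraries were not tested as outliers within a group.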

How the results depend on the processing

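The widest ranges of the counts came from leaving out a library in both comparisons with saline. Where this left a group with 1 library, that library was assumed to vary like the other groups. At Day 8 the count of Hox genes called went from 0 to between 0 and 6 (the highest without saline replicate 2, where 1527 of 15277 genes were called) and the median log2 fold change from -0.25 to between -0.56 and 0.22. At Day 3 the count went from 3 to between 0 and 9 (the highest without saline replicate 2, where 19.0% of all genes were called) and the median from -0.38 to between -0.72 and 0.0045. For Day 8 against Day 3 the count was between 0 and 1. Without quantile normalization the Day 3 median was -0.70. With no filter on low values 1 Hox gene was called for Day 8 against Day 3, in a fit that called 4.72% of all genes. The summed Hox level at Day 3 was 676 CPM when Rn45s was left out of the total, against 609 CPM. Correlations over genes of the deviations from group means were between -0.168 and -0.001 for same-numbered libraries. They were between -0.122 and 0.168 for the others. In a group of 2 libraries the deviations mirror each other, so these correlations cannot decide whether the numbers are pairs. The numbers were not taken as pairs because the labels do not match libraries by animal. With the replicate block the Day 3 count fell from 3 to 0, while the share of all genes called went from 4.56% to 3.89%. The Day 8 count stayed at 0, while that share went from 2.94% to 1.02%. Several values changed sign. Hoxa10 at Day 8 was 0.078 by limma and 0.0065 with no filter. Leaving out each library gave between -0.65 and 1.14 for Hoxa10 and between -0.81 and 0.67 for Hoxa9 at Day 8. At Day 3 it gave between -1.34 and 0.26 for Hoxa9, between -1.84 and 0.19 for Hoxa10 and between -0.90 and 0.44 for Hoxa11, each positive value being that without saline replicate 1. The cause was not tested for any of these. Of 238 gene values under an alternative, 180 kept their direction and side of the cutoffs, 44 lost the call, 6 gained it and 8 changed sign.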
